A study of Mus musculus with 6 samples.

Results

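A set of 7 transcription factors that mark pancreatic duct cells or the progenitors of the embryonic pancreas were followed in acinar-to-ductal metaplasia (ADM), the process in which enzyme-secreting acinar cells take on duct-like features. The 7 genes were Sox9, Onecut1, Onecut2, Pdx1, Sox4, Klf4 and Klf5, taken by gene name from a table of 56953 genes, and each name matched 1 row. The source of RNA was 6 mouse pancreatic acinar cultures embedded in Matrigel and kept for 3 days in serum-containing medium with dexamethasone. WT acini (Dkk3 wild-type; labelled ages 10 and 11 weeks), DD acini (Dkk3 knockout, null for the secreted glycoprotein DKK3; 12 and 13 weeks) and DD acini given recombinant soluble DKK3 (DD + rDKK3; 14 and 15 weeks) contributed 2 libraries each. The knockout allele was present in every cell of the animal, so acinar cells and any accompanying cells of the DD cultures carried it alike. The labelled ages rise by 1 week from each library to the next, an evenness that leaves it unclear whether they were recorded for each animal. Taken as given, they follow the groups, so that a difference in age cannot be told apart from one in group. No source names which animals gave which cultures, so p-values measure the spread between libraries only.

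Sox9 is a SOX-family factor that maintains duct cells and, in the embryo, pancreatic progenitors. Onecut1 (also called HNF6) and its relative Onecut2 are cut-homeodomain factors of the duct and progenitor program, and Pdx1 is the homeodomain factor required for pancreas formation that stays high in adult beta cells and lower in acinar cells. Sox4 is a SOX factor of developing endocrine and epithelial cells, and Klf4 and Klf5 are zinc-finger factors of the Krüppel-like family, both known for roles in epithelial cells and in the early lesions of pancreatic cancer. During ADM the duct program is known to be switched on while the acinar program, led by factors such as Ptf1a, is switched off.

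Library totals ran from 12018473 to 19750401 counts. Counts of Dkk3 itself were 10 and 1 (WT), 11 and 9 (DD) and 5 and 5 (DD + rDKK3). These counts do not check the genotype, since the allele replaced exon 2 and a count summed over the gene does not show which exon was read. The acinar identity of the cultures was visible in all 6 libraries, with 14 digestive enzyme genes adding up to between 115673 and 202259 CPM (read counts scaled to depth, here to TMM-corrected library totals). Summed fibroblast and stellate cell markers (10 of 10 genes passed the filter on low counts) set 2 libraries apart, at 709.7 CPM in DD 2 and 782.9 CPM in DD + rDKK3 2 against 45.8 to 143.9 CPM in the other 4. Des, a weakly counted gene of this list, did not follow the sum, at 1.293 and 1.237 CPM in those 2 against 0.4225 to 2.318 CPM in the other 4. Summed macrophage markers were also highest in DD 2 and DD + rDKK3 2 (249 and 191.2 CPM against 58.16 to 124.2 CPM). Lyz2 led that sum, at 133 and 85.41 CPM, and Adgre1, Csf1r, Mrc1 and C1qb were likewise highest there. Cd68 did not follow, at 36.8 CPM in DD 2 and 40.32 CPM in DD 1. C1qa and Cd163 were higher in WT 1 (19.55 and 9.726 CPM) than in DD + rDKK3 2 (18.34 and 8.229 CPM). WT 2 was labelled female and the rest male, yet its Y-linked genes summed to 141.4 CPM, inside the 118.7 to 146.7 CPM range of the 6 libraries, with 16 Xist counts against 0 in the other 5.

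The promoters of Klf4 and Sox4 are shown here because these members had the smallest p of the 7 between DD and WT (Klf4) and between DD + rDKK3 and DD (Sox4). Each sequence runs 5′ to 3′ on the gene's strand, from 250 bases before the start of the RefSeq gene to 50 bases after it (build GRCm38.p6, which differs from the GRCm39 build of the counts). The Klf4 window (chr4:55532426-55532725, minus strand, 74.3% GC against a median of 52.7% over all promoters) has capitals at 4 matches of the GC box GGGCGG, of which the first 2 overlap and all but the last lie on the opposite strand, and at 1 match of the E box CACGTG. The Sox4 window (chr13:28953650-28953949, minus strand, 52% GC) has capitals at 4 matches of the CCAAT box CCAAT, 3 of them on the opposite strand.
Klf4: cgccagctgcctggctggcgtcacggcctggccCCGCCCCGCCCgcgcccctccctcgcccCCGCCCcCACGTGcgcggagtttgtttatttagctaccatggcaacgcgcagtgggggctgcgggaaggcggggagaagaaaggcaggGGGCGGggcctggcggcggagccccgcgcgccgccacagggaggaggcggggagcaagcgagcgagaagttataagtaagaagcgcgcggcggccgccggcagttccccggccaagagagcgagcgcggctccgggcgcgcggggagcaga
Sox4: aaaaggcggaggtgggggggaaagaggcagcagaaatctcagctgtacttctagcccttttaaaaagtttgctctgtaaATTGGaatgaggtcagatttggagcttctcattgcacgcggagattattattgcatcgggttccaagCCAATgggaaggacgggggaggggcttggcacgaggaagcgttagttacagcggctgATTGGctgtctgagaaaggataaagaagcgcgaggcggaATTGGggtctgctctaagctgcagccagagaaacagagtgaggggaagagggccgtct

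Over both strands, 35.7% of the 32851 RefSeq promoters held at least 1 GC box, 7.15% held the E box and 37.4% held the CCAAT box. Neither window contained the CACCC element (letters CACCC, 57.5% of promoters), the SOX core (AACAAT, 10.7%), the ONECUT core (ATTGAT, 7.54%) or the homeodomain core (TAATTA, 5.29%). The AP-1 site (TGANTCA, 7.81%), the TATA box (TATAAA, 13.6%) and the CArG box (1.63%) were likewise not among their letters. RefSeq promoters were matched for 4 of the 7 members. The Onecut1 window had 3 GC boxes, 3 CACCC elements and 1 E box, and the Pdx1 window had 2 CCAAT boxes, 1 CACCC element and 1 E box. Promoters of Sox9, Onecut2 and Klf5 were not analysed here. A match describes the letters only.

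All 7 members passed the filter on low counts that left 14738 genes, but they covered a wide range of abundance. Per kilobase of exon, which makes genes of different length comparable, Sox4 was first at 26.54 CPM/kb (mean of 6 libraries), above 92.68% of the genes tested. It was followed by Klf4 (9.731 CPM/kb), Klf5 (4.866), Pdx1 (3.826), Sox9 (3.743) and Onecut1 (0.8124), and Onecut2 was last at 0.05291 CPM/kb, above 0.6538% of genes. Sox4 alone made up 53.54% of the summed per-kilobase level of the 7. Neighbours in this order were separated in every library for Sox4 and Klf4, for Sox9 and Onecut1 and for Onecut1 and Onecut2. Klf4 exceeded Klf5 in 6 of 6 libraries and Klf5 exceeded Pdx1 in 5 of 6. Pdx1 and Sox9 could not be ordered, since each was the higher in 3 libraries.

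**Figure D1:**
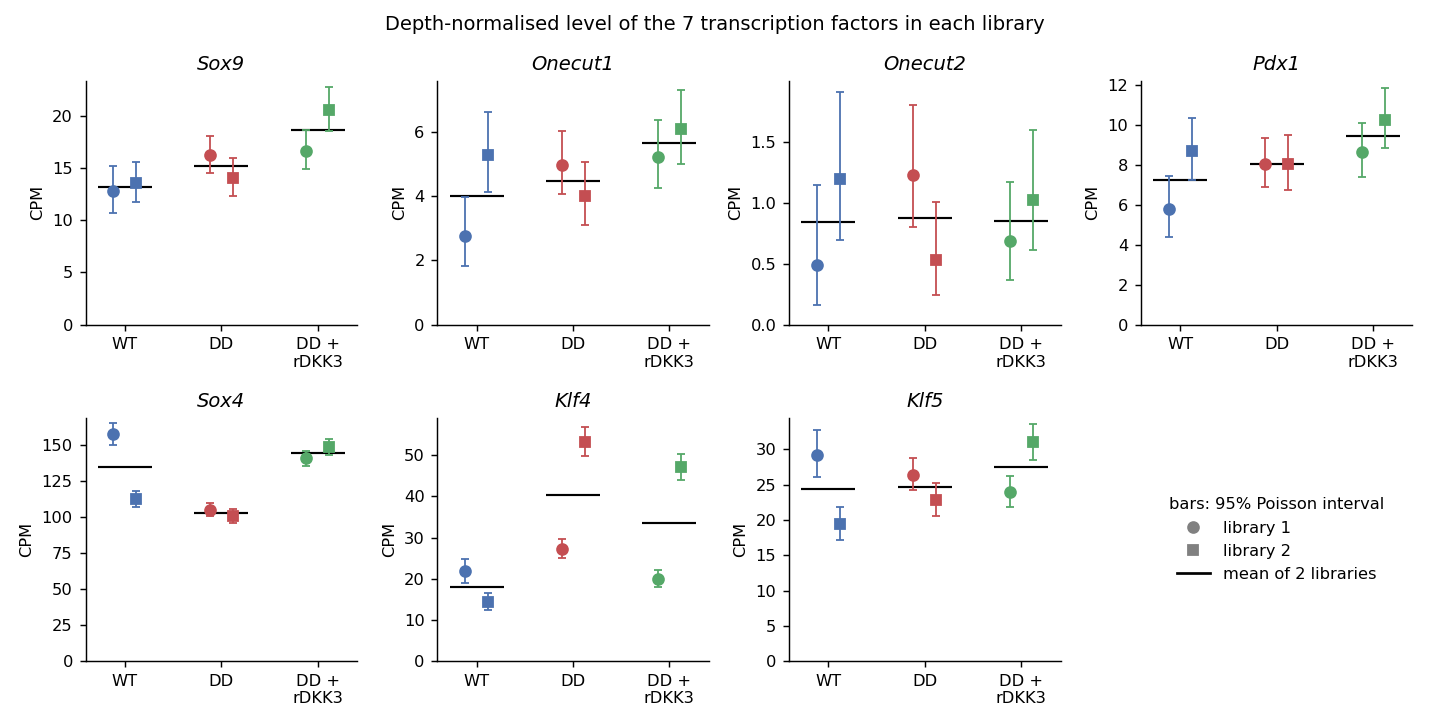
Level of each factor in CPM (linear axis from 0) in the 2 libraries of WT, DD and DD + rDKK3, with the exact 95% Poisson interval of the count as bars and the mean of the 2 libraries as a line. Sox4 was lower in both DD libraries (100.6 and 105 CPM) than in the other 4, and Klf4 was highest in DD 2 and DD + rDKK3 2.

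None of the 7 was called in any comparison (edgeR quasi-likelihood test, Benjamini-Hochberg adjusted p under 0.05 over 14738 genes). Calls were rare throughout: 6 genes or 0.0407% between DD and WT, 0 genes or 0% between DD + rDKK3 and DD, and 7 genes or 0.0475% between DD + rDKK3 and WT. DESeq2 called 80, 5 and 74 genes in the 3 comparisons, again with 0 of the 7. At an unadjusted p under 0.05, 1 member passed in each comparison: Klf4 between DD and WT, where 8.26% of all genes did, Sox4 between DD + rDKK3 and DD (1.98% of all genes), and Sox9 between DD + rDKK3 and WT (15.3% of all genes). With 2 libraries against 2, an exact two-sided permutation test of a single gene cannot give a p below 0.3333.

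Sox9 stood at 12.77 and 13.56 CPM in WT, 16.23 and 14.05 CPM in DD and 16.64 and 20.55 CPM in DD + rDKK3. Both WT libraries lay below both DD libraries, and these in turn below both DD + rDKK3 libraries. The gene (ENSMUSG00000000567, chr11:112673050-112678586, plus strand, 3 exons in GRCm39) differed by 0.20 on the log2 scale between DD and WT (SE 0.189, 95% interval -0.24 to 0.64, adjusted p = 0.692). Between DD + rDKK3 and DD the log2 difference was 0.29 (SE 0.185, adjusted p = 1.00). The widest difference was between DD + rDKK3 and WT, at 0.50 (95% interval 0.06 to 0.93, unadjusted p = 0.0311, adjusted p = 0.321). That log2 difference stayed between 0.34 and 0.64 when any single library was left out. It is the sum of 2 steps that share the DD libraries, and neither step passed the test.

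Onecut1 had 2.751 and 5.268 CPM in WT, 4.969 and 3.998 CPM in DD and 5.229 and 6.078 CPM in DD + rDKK3. WT 1 was the low library, and WT 2 exceeded both DD libraries, so WT and DD overlapped. The gene (ENSMUSG00000043013, chr9:74769203-74799063, plus strand, 2 exons) shares its strand with the overlapping noncoding gene Gm20649, which had 0 counts, and reads that fit both may have been dropped in counting. Log2 differences were 0.15 (95% interval -0.65 to 0.94) for DD against WT, 0.33 (-0.44 to 1.10) for DD + rDKK3 against DD and 0.48 (-0.31 to 1.27) for DD + rDKK3 against WT. Without WT 1 the first of these turned to -0.22, and without WT 2 it was 0.71.

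Onecut2, the weakest of the 7, was counted 5 and 17 times (WT), 26 and 9 times (DD) and 13 and 19 times (DD + rDKK3), or 0.4912, 1.194, 1.23, 0.5291, 0.6866 and 1.022 CPM in the same order. All 3 groups overlapped. For this gene (ENSMUSG00000045991, chr18:64473091-64534058, plus strand, 2 exons) the 95% intervals of the log2 differences spanned -1.42 to 1.50, -1.47 to 1.35 and -1.49 to 1.45, so that changes of up to 2.55-fold in either direction lie inside all 3 intervals. Onecut1 exceeded Onecut2 between 11.3 and 21.3 times per kilobase across the libraries.

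Pdx1 was at 5.796 and 8.71 CPM in WT, 8.045 and 8.054 CPM in DD and 8.662 and 10.27 CPM in DD + rDKK3. The DD pair lay between the WT libraries, and both DD + rDKK3 libraries lay above both DD libraries. The gene (ENSMUSG00000029644, chr5:147206769-147212658, plus strand, 2 exons) overlaps a noncoding gene, Plut, on the opposite strand, which strand-specific counting keeps apart. Log2 differences were 0.14 (SE 0.247), 0.23 (SE 0.241) and 0.38 (SE 0.246) for DD against WT, then for DD + rDKK3 against DD, then for DD + rDKK3 against WT, with adjusted p of 0.836, 1.00 and 0.444. The first turned to -0.10 without WT 1. Pdx1 is also a beta cell factor. Summed islet markers were at 287.4 and 275.5 CPM in WT, 195.8 and 296.9 CPM in DD and 262.5 and 162.3 CPM in DD + rDKK3, and the library with the highest Pdx1, DD + rDKK3 2, had the lowest islet sum. The islet list had 10 of 11 genes past the filter, with Ins2 at 27.48 to 63.43 CPM, and its part in the Pdx1 values was not tested.

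Sox4 had 157.2 and 112.1 CPM in WT, 105 and 100.6 CPM in DD and 140.4 and 148.3 CPM in DD + rDKK3. Both DD libraries were the lowest of the 6, and DD + rDKK3 lay above DD without overlap while falling between the WT libraries. For this single-exon gene (ENSMUSG00000076431, chr13:29132902-29137696, minus strand) the log2 difference between DD + rDKK3 and DD was 0.49 (SE 0.192, 95% interval 0.04 to 0.94, unadjusted p = 0.0353, adjusted p = 1.00), or 1.40-fold. It ranged from 0.44 to 0.51 with any single library left out. DD against WT gave -0.39 (SE 0.192, 95% interval -0.84 to 0.06, adjusted p = 0.586). This second value leaned on 1 library: its size was -0.11 in the absence of WT 1 and -0.61 in that of WT 2. With library totals in place of TMM scaling it shrank to -0.16, while the median of all genes moved to 0.22, so that relative to this median Sox4 remained lower. The difference between DD + rDKK3 and WT was 0.10 (95% interval -0.34 to 0.55) and turned to -0.12 without WT 2. Relative to Sox9, the per-kilobase level of Sox4 was 10.72 and 7.202 times (WT), 5.632 and 6.235 times (DD) and 7.349 and 6.286 times (DD + rDKK3) as high.

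Klf4 varied most among the 7, with 21.81 and 14.4 CPM in WT, 27.35 and 53.26 CPM in DD and 19.96 and 47.06 CPM in DD + rDKK3. Both DD libraries lay above both WT libraries, whereas DD + rDKK3 1 fell between the WT values. The gene (ENSMUSG00000003032, chr4:55527143-55532466, minus strand, 5 exons) differed by 1.16 on the log2 scale between DD and WT (SE 0.458, 95% interval 0.09 to 2.22, unadjusted p = 0.0364, adjusted p = 0.586), or 2.23-fold. Of all genes tested, 3.99% had a larger absolute log2 difference in this comparison. DD + rDKK3 against WT gave 0.90 (95% interval -0.17 to 1.96, adjusted p = 0.361), and DD + rDKK3 against DD gave -0.26 (95% interval -1.29 to 0.76). The sign of the last one changed to 0.29 when DD 2 was left out and to 0.21 when DD + rDKK3 1 was. Among libraries of the same number, Klf4 was lower in DD + rDKK3 than in DD. The values were 19.96 against 27.35 CPM for number 1 and 47.06 against 53.26 CPM for number 2. Whether equal numbers mark the same animal is not known.

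The 2 libraries with the most Klf4, DD 2 and DD + rDKK3 2, were the same 2 that stood apart in summed fibroblast and stellate markers. The most abundant of these markers, the collagen genes Col1a1 and Col1a2, were at 252.1 and 218.9 CPM in DD 2 and at 304.6 and 247.5 CPM in DD + rDKK3 2. In the other 4 libraries Col1a1 was at 10.54 to 49.8 CPM, and none of the 10 markers was at 0 throughout. As bulk RNA was sequenced, more cells of a type and more RNA per cell cannot be told apart. With both of these libraries left out, an alternative chosen after the data were seen, the log2 difference of Klf4 between DD and WT was 0.60 and between DD + rDKK3 and WT 0.15. Leaving out DD 2 alone gave 0.61 for DD against WT, and leaving out DD 1 gave 1.59. Summed mesothelial markers (2 of 4 past the filter) were at 8.547 and 8.429 CPM in WT, 14.67 and 34.69 CPM in DD and 12.62 and 13.77 CPM in DD + rDKK3. Most of this sum was 1 gene, Msln (7.761 and 8.429 CPM in WT, 14.24 and 32.63 CPM in DD, 12.04 and 12.21 CPM in DD + rDKK3). Msln had a log2 difference of 1.53 between DD and WT (unadjusted p = 0.00324, adjusted p = 0.532). The other gene past the filter, Wt1, overlapped between WT (0.6877 and 0 CPM) and DD (0.2366 and 1.881 CPM). The part of fibroblast, stellate or mesothelial cells in the Klf4 values was not tested.

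**Figure D2:**
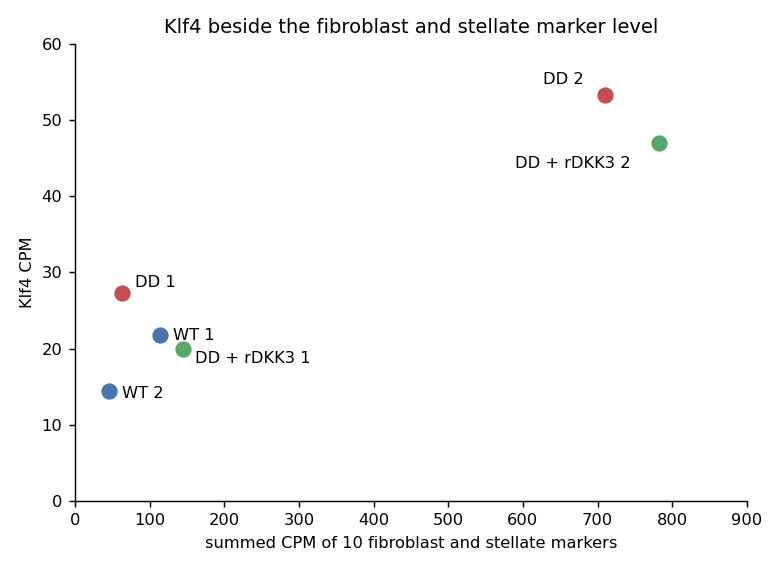
Klf4 level in CPM against the summed CPM of 10 fibroblast and stellate markers, 1 point per library, both axes linear from 0. DD 2 and DD + rDKK3 2 sit at 709.7 and 782.9 marker CPM with 53.26 and 47.06 CPM of Klf4, and the other 4 libraries lie below 150 marker CPM with Klf4 at 14.4 to 27.35 CPM.

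Klf5, by contrast, had 29.28 and 19.46 CPM in WT, 26.45 and 22.87 CPM in DD and 23.98 and 31.03 CPM in DD + rDKK3, and all 3 groups overlapped. Log2 differences of the gene (ENSMUSG00000005148, chr14:99536127-99552472, plus strand, 4 exons) were 0.02 (95% interval -0.52 to 0.57) for DD against WT, 0.16 (-0.38 to 0.69) for DD + rDKK3 against DD and 0.18 (-0.36 to 0.72) for DD + rDKK3 against WT. Each of the 3 took the other sign when 1 or another library was left out, for example -0.24 for DD against WT without WT 2. Klf4 per kilobase exceeded Klf5 by 1.24 and 1.232 times in WT, 1.722 and 3.878 times in DD and 1.386 and 2.525 times in DD + rDKK3. The ratio was therefore lowest in the 2 WT libraries and highest in DD 2 and DD + rDKK3 2.

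**Figure D3:**
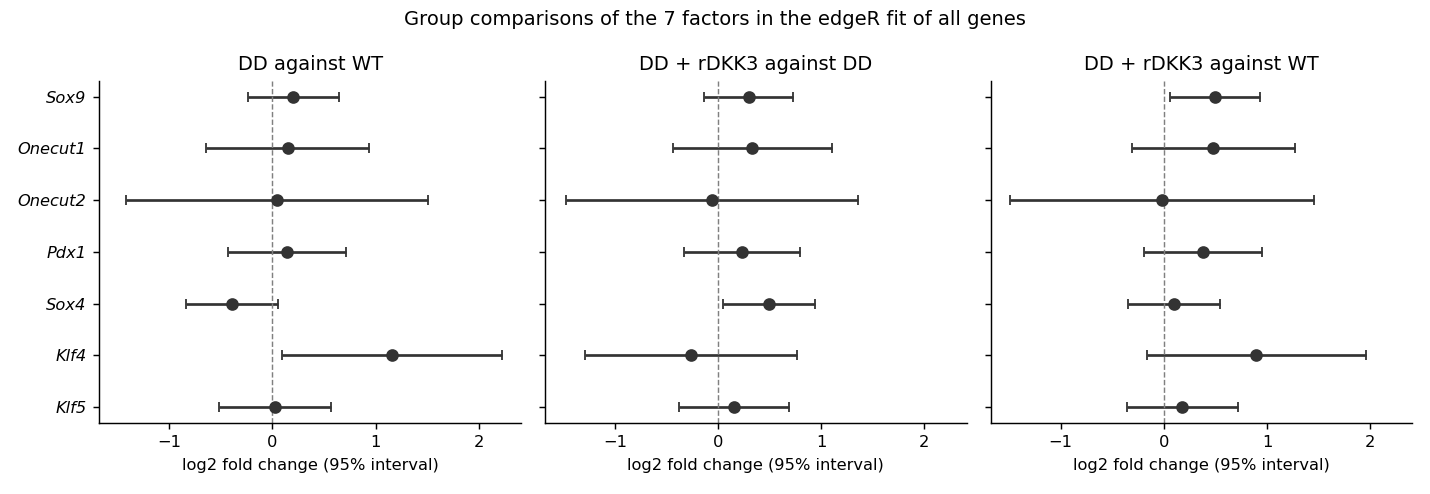
Log2 fold changes of the 7 factors with 95% intervals from the edgeR fit of all genes, in 3 panels (left, DD against WT, middle, DD + rDKK3 against DD, right, DD + rDKK3 against WT). The interval leaves out 0 for Klf4 in the left panel, Sox4 in the middle and Sox9 on the right, and no adjusted p was under 0.05.

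Across the 7, 6 log2 differences were above 0 between DD and WT (51.7% of all genes), 5 between DD + rDKK3 and DD (49.5%) and 6 between DD + rDKK3 and WT (51.6%). Their medians were 0.14, 0.23 and 0.38, beside 0.02, 0.00 and 0.02 for all genes tested. The first median turned to -0.10 without WT 1 and was 0.48 without WT 2. With single libraries left out, the second ran from 0.10 (without DD + rDKK3 2) to 0.38 (without DD 1) and the third from 0.15 (without DD + rDKK3 2) to 0.62 (without WT 2). Groups did not overlap for 3 members between DD and WT (Sox9 and Klf4 higher, Sox4 lower), where 37.8% of all genes did not (18.1% higher and 19.7% lower). Between DD + rDKK3 and DD, 4 members were higher without overlap (Sox9, Onecut1, Pdx1 and Sox4), against 15.1% of all genes in that direction, 14.4% in the other and 29.5% in either. Between DD + rDKK3 and WT only Sox9 was, against 27.9% of all genes in that direction, 27.1% in the other and 55% in either. These comparisons share libraries, so their values are given side by side and not set against each other.

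**Figure D4:**
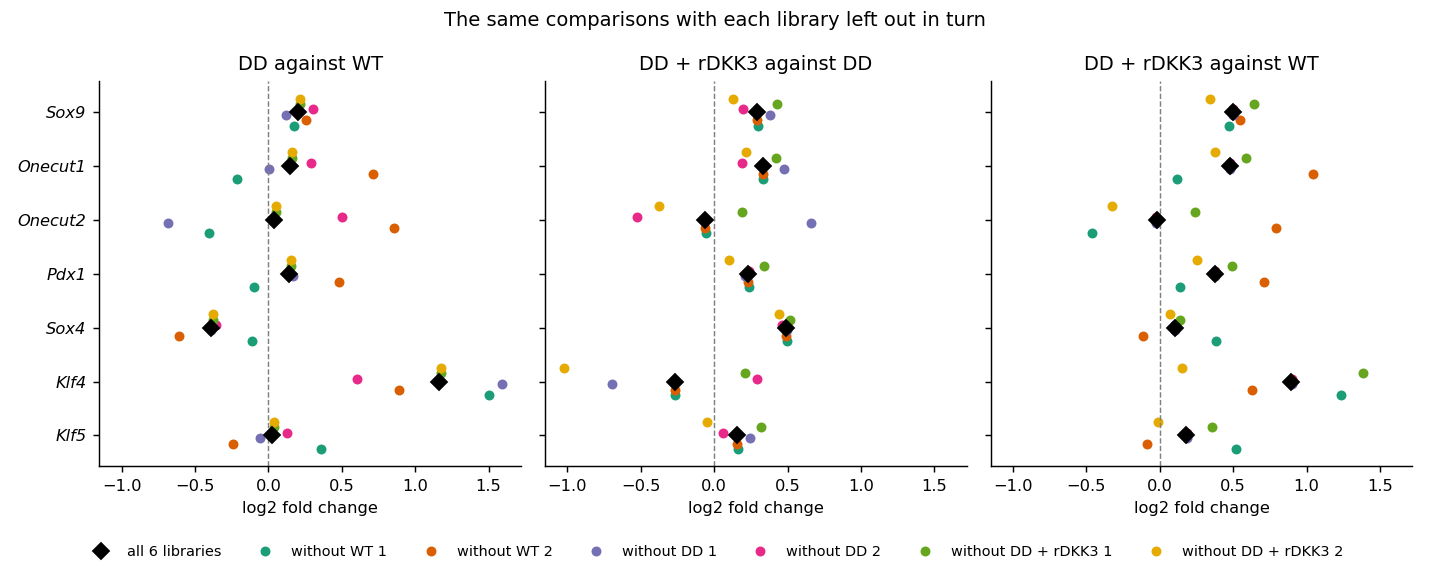
Log2 fold changes of the 7 factors with all 6 libraries (black diamonds) and with each library left out in turn (coloured points). Sox9, Onecut1, Pdx1 and Sox4 stay above 0 in DD + rDKK3 against DD. Onecut2 spreads to both sides of 0 in all 3 comparisons, and Klf4 moves from -1.02 to 0.29 in the middle one.

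The other transcription factors of the duct and progenitor program gave 19 of 24 genes past the filter. None passed the test after adjustment. Their median log2 difference was 0.16 for DD against WT, 0.05 for DD + rDKK3 against DD and 0.20 for DD + rDKK3 against WT, with 12, 13 and 12 genes above 0. The first median was -0.0003 without WT 1 and 0.35 without WT 2, the second turned to -0.02 without DD 2, and the third was 0.12 without WT 1 and 0.46 without WT 2. At an unadjusted p under 0.05 there were 1, 0 and 3 genes, all higher in the Dkk3-null libraries, where 8.26%, 1.98% and 15.3% of all genes had such a p, so these counts lie near the share of all genes. Hnf4a, a nuclear receptor of foregut epithelia, was at 37.53 and 46.29 CPM in WT, 84 and 62.49 CPM in DD and 53.08 and 67.87 CPM in DD + rDKK3 (log2 difference of 0.80 for DD against WT, unadjusted p = 0.00571, adjusted p = 0.586). For DD + rDKK3 against WT these included Tead1 (0.57), a partner of the coactivator YAP1, and Hnf4a (0.53), each at adjusted p = 0.321. By CPM, without correction for length, Elf3 (75.44 to 134.9 CPM) and Yap1 (63.46 to 78.36 CPM) had the highest values of the list.

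Within the KLF family, 11 of 15 relatives passed the filter, with median log2 differences of 0.00, 0.28 and 0.28 in the 3 comparisons. Klf4 and Klf5 were not the leading members by level: Klf6 had 72.12 CPM/kb and Klf9, a gene known to respond to glucocorticoids, 24.95 CPM/kb, against 9.731 for Klf4. Klf11 (0.44 for DD + rDKK3 against DD, unadjusted p = 0.043) and Klf13 (0.52 for DD + rDKK3 against WT, unadjusted p = 0.00916, adjusted p = 0.321) had the smallest p among these relatives in their comparison. Neither passed the test. The SOX family had 7 of 17 relatives past the filter, with medians of 0.00, 0.01 and 0.02, the second of which was -0.24 without DD 1 and 0.24 without DD 2. Sox1, Sox2, Sox3 and Sox14 had no count in any library. By CPM its leading relatives outside the 7 were Sox6 at 8.449 to 13.1 CPM and Sox13 at 6.82 to 8.874 CPM, whereas per kilobase Sox18 led at 3.532 CPM/kb, ahead of Sox13 (1.486) and Sox6 (0.6595).

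**Figure D5:**
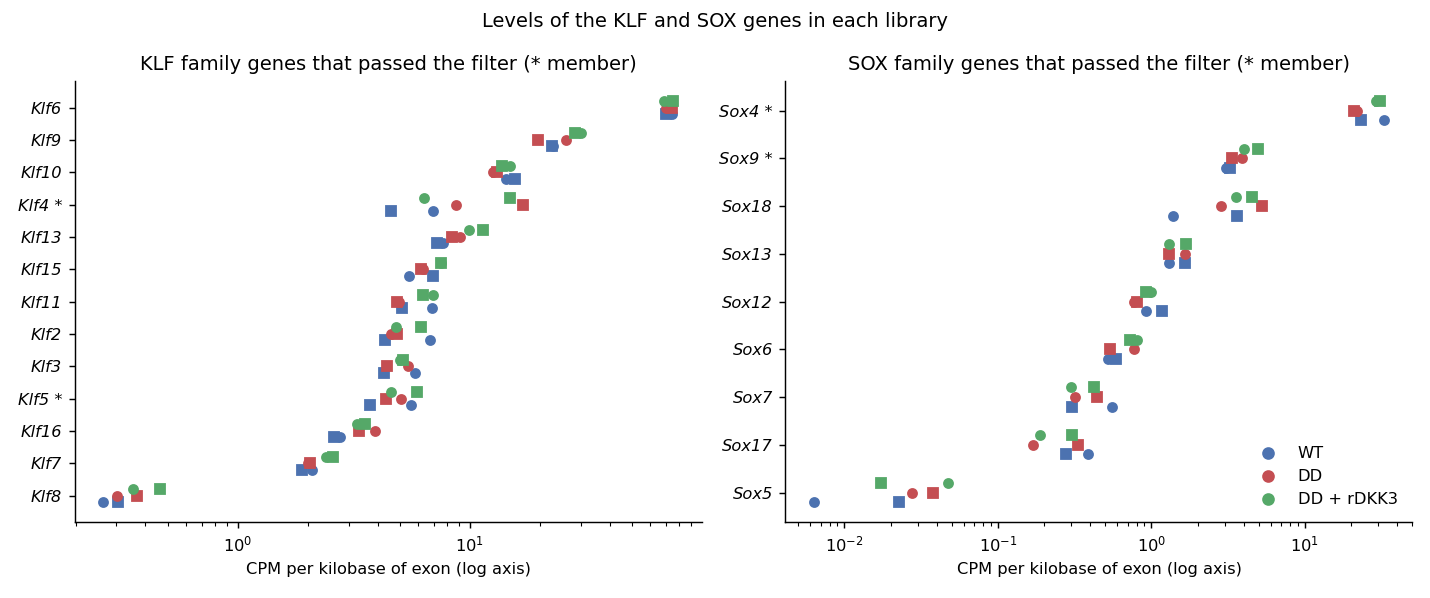
Level per kilobase of exon (log axis) of the KLF and SOX genes that passed the filter, ordered by their mean, with circles for libraries numbered 1 and squares for libraries numbered 2. Klf6 leads the KLF genes at a mean of 72.12 CPM/kb with its 6 libraries close together, Klf4 shows a wide spread, and Sox4 leads the SOX genes at 26.54 CPM/kb.

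Genes listed here as products of the duct program, which these factors are known to accompany, passed the filter on low counts for 19 of 21. Bulk RNA does not show which cells of the cultures they came from. By CPM, without correction for length, the secreted chaperone Clu (11669 to 19502 CPM) and the keratin Krt8 (1286 to 1935 CPM) were the most abundant. Their median log2 difference was 0.03 for DD against WT, -0.21 for DD + rDKK3 against DD and -0.27 for DD + rDKK3 against WT. The first turned to -0.11 without WT 2, and the last was -0.13 without WT 1. No gene of the list passed the adjusted test. Of the 19 genes, 10, 4 and 5 were above 0 in the 3 comparisons, in this order. At an unadjusted p under 0.05 there were 1 higher and 0 lower, then 0 higher and 2 lower, then 1 higher and 4 lower. Of all genes, 8.26%, 1.98% and 15.3% had such a p. Krt7, a keratin of duct cells, had 88.81 and 81.55 CPM in WT, 75.34 and 88.77 CPM in DD and 56.67 and 59.38 CPM in DD + rDKK3 (log2 difference of -0.50 against DD, unadjusted p = 0.0126, adjusted p = 1.00). Tspan8, a tetraspanin of epithelial cells, was at 55.5, 39.4, 63.75, 121.8, 35.76 and 50.07 CPM in the order WT, DD and DD + rDKK3, with the high value in DD 2 (log2 differences of 0.97 for DD against WT and -1.11 for DD + rDKK3 against DD). With both libraries numbered 2 of the Dkk3-null groups left out the first was 0.43, and without DD 2 the second was -0.57. Car2, a carbonic anhydrase of duct cells, differed by -1.13 (unadjusted p = 0.00411) and the adhesion molecule Epcam by -0.41 (unadjusted p = 0.0318) between DD + rDKK3 and WT, both at adjusted p = 0.321.

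The acinar side was read from 5 transcription factors and 14 enzymes, all of which passed the filter. Acinar transcription factors had medians of 0.11, 0.21 and 0.12. The first was -0.20 without DD 1 and 0.38 without DD 2, the second was 0.03 without DD 2 and 0.37 without DD 1, and the third was 0.02 without WT 1 and 0.26 without WT 2. Ptf1a had 118.7 and 219.9 CPM in WT, 242.3 and 209 CPM in DD and 263.8 and 284.9 CPM in DD + rDKK3 (log2 difference of 0.70 for DD + rDKK3 against WT, unadjusted p = 0.0387, adjusted p = 0.321, and 0.34 without WT 1). Xbp1, a factor of the secretory pathway, was the most abundant. It was at 1376 and 1055 CPM in WT, 1010 and 775.5 CPM in DD and 1115 and 947 CPM in DD + rDKK3. Its log2 difference was -0.45 for DD against WT (adjusted p = 0.586), where 3 of the 5 factors were higher and 2 lower. All 14 enzymes were lower in DD than in WT by their log2 difference (median -0.73, 8 at an unadjusted p under 0.05), 14 were higher in DD + rDKK3 than in DD (median 0.25, 1 at an unadjusted p under 0.05) and 14 were lower in DD + rDKK3 than in WT (median -0.42, 3 at an unadjusted p under 0.05). Of all genes, 8.26%, 1.98% and 15.3% had such a p in the 3 comparisons. The enzyme medians depended on single libraries: without WT 1 the first was -0.41 and the third -0.15, and without DD + rDKK3 1 the second was 0.11 and the third -0.65. No enzyme passed after adjustment. Rnase1, a secreted ribonuclease, gave -0.85 (unadjusted p = 0.00388, adjusted p = 0.555) for DD against WT and 0.56 (unadjusted p = 0.0288) for DD + rDKK3 against DD.

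Genes whose log2 CPM followed a member most closely over the 6 libraries were searched among 12000 genes, as a description without a test. Sox9 was matched by Zfp710 and Rnf103 (Pearson r = 0.996 for both), Onecut1 by Stk38 (0.999) and Btbd7 (0.995) and Pdx1 by Trim3 (0.990) and Poc5 (0.990). Onecut2 was matched by Cys1 and Ostm1 (0.980 for both) and Klf5 by Mta2 (0.988) and Dbf4 (0.981). For Sox4 the closest were Kctd18 (0.968) and Glul (0.968), glutamine synthetase, which had 1042 and 905.5 CPM in WT, 861.2 and 858.1 CPM in DD and 1039 and 997.5 CPM in DD + rDKK3. Klf4 was followed by Sh3pxd2b (0.995) and Calu (0.994), and both were highest in DD 2 and DD + rDKK3 2, Sh3pxd2b at 28.4 and 25.44 CPM against 9.623 to 14.72 CPM elsewhere. With 6 libraries, between 8 genes (Sox4) and 217 genes (Onecut1) reached an r above 0.95. Among the members themselves, Onecut1 and Pdx1 were the most alike (r = 0.960), both lowest in WT 1, the library of least depth, while Sox4 and Klf4 were at r = -0.14.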

How the data were processed

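Libraries (NEBNext Ultra II Directional, strand-specific, paired-end) were made from acini after 3 days in culture. According to the methods and processing notes, the authors aligned reads with STAR 2.7.9a to GRCm39, counted them over GENCODE M32 exons in union mode and summed exons to genes. The deposited values are raw counts of sequenced fragments for each gene, without normalisation or pooling. Reads that fit 2 genes may be dropped in this mode, and near-identical copies may share reads.

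From these counts, 92 spike-in rows (all at 0) were set aside, and filterByExpr (minimum count 10, minimum total 15) left 14738 of 56953 genes. Counts were scaled by TMM and fitted with edgeR 4.0.16 (R 4.3.3) by the quasi-likelihood test over all 6 libraries in 3 groups, with Benjamini-Hochberg adjustment over all genes tested. Residual degrees of freedom were 3, the prior degrees of freedom 4.634 and the common biological coefficient of variation 0.2148. Log2 CPM used a prior count of 2, and levels per kilobase used exon lengths of GENCODE M39 (GRCm39). Exact 95% Poisson intervals cover counting error only, as reads carried no molecular identifiers. Depth was 12018473 to 19750401 counts.

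Alternatives were size factors by relative log expression, library totals alone, no filter, a stricter filter (minimum count 30), DESeq2 1.42.0, limma-voom (limma 3.58.1), the 2 compared groups alone, a block on the library number, and each library left out. The procedure was tested on simulated data, with 200 genes changed in DD. Between DD and WT, 23% of them were called at a true log2 difference of 1 and 72.5% at 2. A true change of such a size can therefore go uncalled in this design. False calls numbered 15 and 22. In both runs they were a larger share of the calls than the adjusted p threshold of 0.05 allows. A gene called in this design can therefore also be a false call. The members and gene lists were chosen with earlier results of these data known. Besides the 7 members, genes were named by rule: up to 3 of each list with the smallest unadjusted p under 0.05 in a comparison, the 2 most abundant of each list, and the 2 with the highest Pearson r to each member. Not every gene that the rule gives is printed, and the result of 1 list gene is not reported here. Gm20649, Plut, Sox1, Sox2, Sox3, Sox14 and Sox18 were named outside this rule, after their values were seen. Summed markers of smooth muscle, Schwann cells and lymphocytes were at most 12.29, 1.124 and 1.506 CPM in any library, endothelial markers ran from 69.26 to 127.9 CPM and mesothelial markers from 8.429 to 34.69 CPM.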

Additional observations from a re-analysis of the deposited data

How the results depend on the processing

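Of 333 values of the members recomputed under the alternatives, 308 kept their direction and side of the threshold, 23 changed direction and 2 became calls. The 2 calls were Klf4 without the filter on low counts, at 1.22 for DD against WT (edgeR adjusted p = 5.49e-07, against up to 0.952 under the other alternatives) and 0.94 for DD + rDKK3 against WT (adjusted p = 0.00048, against up to 0.962), so that 1 member was called in each. In that fit of 26506 genes the prior degrees of freedom were estimated as infinite, which replaces each gene's own spread by the trend, and 528, 73 and 788 genes were called: the first number is for DD against WT, the second for DD + rDKK3 against DD, the third for DD + rDKK3 against WT. DESeq2 called 80, 5 and 74 genes. limma-voom called 3 between DD + rDKK3 and WT. The cause of these last differences was not tested. With 1 library left out, 2 to 6 genes were called between DD and WT, 0 between DD + rDKK3 and DD, and 2 to 9 between DD + rDKK3 and WT, the lowest counts without WT 1, without WT 2 and, in the first, without DD 1; a count of 3 in the last followed from leaving out DD + rDKK3 1.

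Directions that turned with a library left out were those of Onecut1 (-0.22 to 0.71), Onecut2 (-0.68 to 0.86), Pdx1 (-0.10 to 0.48) and Klf5 (-0.24 to 0.36) for DD against WT. The same held for Onecut2 (-0.52 to 0.66), Klf4 (-1.02 to 0.29) and Klf5 (-0.0475 to 0.32) for DD + rDKK3 against DD, and for Onecut2 (-0.46 to 0.79), Sox4 (-0.12 to 0.38) and Klf5 (-0.0844 to 0.52) for DD + rDKK3 against WT. Onecut2 for DD + rDKK3 against WT, at -0.02, also turned to 0.12 with library totals alone, 0.0200 without the filter and 0.0121 with limma-voom. With both Dkk3-null libraries numbered 2 left out, chosen after the data were seen, Klf5 was at -0.13 for DD + rDKK3 against DD and -0.0131 for DD + rDKK3 against WT, and 14 genes were called between DD and WT. Library totals alone moved the median of all genes to 0.22 for DD against WT.

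Same-numbered libraries share no named animal, so the number was not taken as a pairing. Deviations from the group means correlated at -0.39 (WT and DD), -0.25 (WT and DD + rDKK3) and 0.65 (DD and DD + rDKK3) over 14738 genes. With the replicate block over all 6 libraries, 7, 0 and 5 genes and 0 members were called. With a replicate block within the Dkk3-null libraries alone, 20 genes were called between DD and WT and 15 between DD + rDKK3 and WT, Klf4 was at 0.54 and 0.22, Klf5 for DD against WT turned to -0.0127 and Onecut2 for DD + rDKK3 against WT to 0.12. Of the medians of the gene lists, 294 moved by less than the spread between replicates and 42 by more. Each group has 2 libraries, and Onecut2 had only 5 to 26 counts in each.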
